A study of Mus musculus with 2 samples.

Results

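The Hox genes were all features whose symbol matched Hoxa, Hoxb, Hoxc or Hoxd followed by a number, and 39 of the 32286 features met this rule. UMIs (counted transcript molecules) of these 39 genes were summed over marker-gated stromal, endothelial and blood cells of each library and divided by the class total, which gives CPM, counts per 1000000 UMIs of the class. The libraries came from male mice with Adipoq-CreERT2, a tamoxifen-inducible Cre driven by the adiponectin gene, and Ai9, a Cre-dependent tdTomato reporter. All mice were given tamoxifen for 3 days at 8 weeks of age. Chase cells were harvested 4 weeks later and pulse cells 24 h later, and chase mice were therefore older at harvest. The sorted cells were those bright for tdTomato among digested cells of the endosteal niche (inner bone surface) of the femur and tibia, and made up 0.29% of all cells in the chase sample and 0.01% in the pulse sample. The series used 4 mice, without a stated number per library. Each group has 1 library, so no comparison has a replicate check or a test, and every interval below is a 95% interval for counting error only.

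Hox genes encode homeodomain transcription factors that give cells their address along the body axis and, in limbs, along the shoulder or hip to digit axis. They lie in 4 clusters, and genes of the same number in different clusters (paralogs) are related in sequence and role. Low-numbered genes are expressed towards the head and high-numbered genes towards the tail and, in limbs, towards the digits. Limb skeletal and marrow stroma keeps a posterior code after development, and blood stem and progenitor cells use Hoxa and Hoxb genes for their self-renewal.

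The chase library held 10046 barcodes and 82939659 UMIs, and the pulse library 10608 barcodes and 89009901 UMIs. After filters on cells and removal of doublets, 8335 chase and 9212 pulse cells were kept. Endothelial cells numbered 288 and 326 (median depth 7018.5 and 6998.5 UMIs), stromal cells 4525 and 4875 (6929 and 8533 UMIs) and blood cells 2797 and 3273 (9538 and 5762 UMIs) in the chase and pulse libraries. The sort was for a stromal reporter, and the endothelial and blood cells go against the label of mesenchymal cells. Their defining markers were present: Cdh5, an adhesion molecule of endothelium, stood at 1195 in chase and 1348 CPM in pulse in endothelial against 2.27 and 2.61 CPM in stromal cells. Ptprc, the gene of the pan-leukocyte antigen CD45, stood at 3.65 in chase and 4.90 CPM in pulse in stromal cells against 393 and 440 CPM in blood. Cells that passed more than 1 gate (627 in chase and 693 in pulse) or none (98 and 45) were kept apart. The 2 libraries shared 52 barcodes, of which 25 chase and 22 pulse cells were among those kept.

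Endothelial and stromal cells had Hox transcripts at closely similar total levels, while blood cells had far fewer. All Hox genes together stood at 399 CPM (373 to 425) in chase and 404 CPM (380 to 428) in pulse endothelial cells. In stromal cells the sum was 392 CPM (385 to 398) in chase and 385 CPM (380 to 391) in pulse, and in blood 25.8 CPM (24.1 to 27.6) and 23.5 CPM (21.6 to 25.5). Which genes made up these sums differed by class. In endothelium Hoxb genes held 51.9% of the Hox UMIs in chase and 54.2% in pulse, while Hoxc genes held 1.64% and 0.826%. In stroma Hoxb genes held 9.46% in chase and 10.8% in pulse, Hoxc genes 43.9% and 40.8% and Hoxa genes 44.9% and 46.8%. The UMI-weighted mean paralog number, a summary of how posterior a code is, was 5.68 in chase and 5.84 in pulse in endothelium, 7.35 and 7.56 in stroma and 5.81 and 5.97 in blood. Paralogs 9 to 13 held 9.20% in chase and 8.91% in pulse of the Hox UMIs of endothelial cells, but 47.1% and 53.5% of those of stromal cells.

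**Figure D1:**
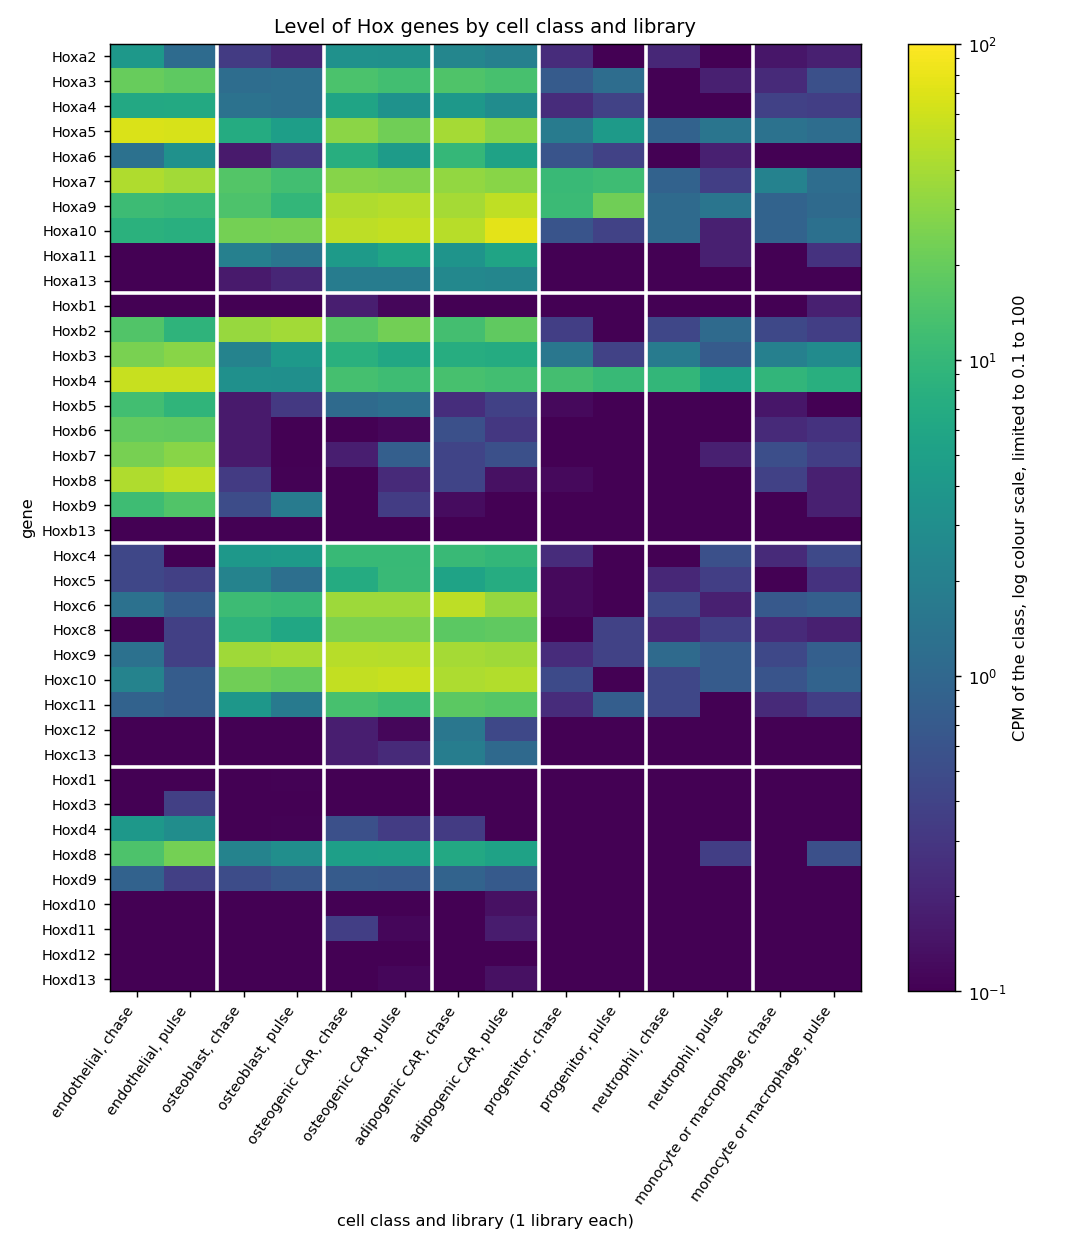
Level of Hox genes (rows) in 7 cell classes of the chase and pulse libraries (columns), as CPM on a log colour scale limited to 0.1 to 100. The Hoxa and Hoxc rows are bright in the 3 stromal classes, Hoxb5 to Hoxb9 are brightest in endothelial cells, and Hoxa7, Hoxa9 and Hoxb4 stand out in progenitor cells.

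The upstream sequences of 3 genes are shown because each marks a different class: Hoxa10 the stroma, Hoxb8 the endothelium and Hoxb4 all of them, blood included. Each is the 250 bases before the RefSeq transcription start on GRCm38.p6, written 5′ to 3′ on the strand of the gene, and overlaps no GENCODE vM21 exon. Hoxa10 lies at chr6:52240855-52241104 (minus strand), Hoxb4 at chr11:96318017-96318266 (plus strand) and Hoxb8 at chr11:96281655-96281904 (plus strand).
Hoxa10: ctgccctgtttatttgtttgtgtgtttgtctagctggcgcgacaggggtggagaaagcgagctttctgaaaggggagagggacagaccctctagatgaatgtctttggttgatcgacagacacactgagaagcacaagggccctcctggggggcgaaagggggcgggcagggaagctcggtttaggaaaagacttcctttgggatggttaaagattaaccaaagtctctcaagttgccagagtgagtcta
Hoxb4: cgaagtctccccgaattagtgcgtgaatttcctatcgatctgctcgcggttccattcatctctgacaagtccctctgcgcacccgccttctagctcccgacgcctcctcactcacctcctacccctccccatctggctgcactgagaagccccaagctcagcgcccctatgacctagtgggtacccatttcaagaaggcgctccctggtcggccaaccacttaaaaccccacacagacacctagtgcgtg
Hoxb8: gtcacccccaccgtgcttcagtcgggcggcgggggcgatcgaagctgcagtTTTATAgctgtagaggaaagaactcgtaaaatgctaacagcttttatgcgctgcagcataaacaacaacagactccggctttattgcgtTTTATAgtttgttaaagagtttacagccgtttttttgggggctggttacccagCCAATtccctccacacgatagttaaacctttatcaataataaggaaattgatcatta
Capitals mark matches on either strand to TATAAA (the TATA box), CCAAT (the motif of the factor NF-Y) or TGATTNAT (a joint Pbx and Hox motif). The Hoxb8 stretch held 2 TATAAA matches, both read on the opposite strand as TTTATA, and 1 CCAAT match. The Hoxa10 and Hoxb4 stretches held none of these letters. Of all 32851 promoter entries, 12.4% held TATAAA, 33.8% CCAAT and 2.82% TGATTNAT. Among 24 entries for 22 Hox genes, 4 held TATAAA, 14 CCAAT and 2 TGATTNAT. The GC content was 51.6% for Hoxa10, 58% for Hoxb4 and 44.4% for Hoxb8, with 7, 14 and 12 CpG pairs.

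In the stroma, 35 Hox genes were found in the chase and 36 in the pulse library, and 24 had at least 20 UMIs in both. The genes above 20 CPM in both libraries were Hoxa5, Hoxa7, Hoxa9, Hoxa10, Hoxc6, Hoxc9 and Hoxc10. Hoxa10, a gene needed for patterning of the thigh segment, stood at 43.9 and 60.6 CPM in chase and pulse stroma. Hoxc10, its paralog, stood at 40.8 in chase and 42.1 CPM in pulse, and Hoxc9, a gene of the trunk level, at 40.4 and 39.7 CPM. These levels are UMIs at the 3′ end of transcripts, which do not scale with transcript length, though capture may differ between genes. Hoxc6, a gene of the chest level, stood at 41.8 CPM in chase and 29.3 CPM in pulse stroma. Hoxa9 stood at 35.9 in chase and 42.4 CPM in pulse, Hoxa5 at 32.7 and 23.2 CPM and Hoxa7 at 28.9 and 25.6 CPM. In between lay Hoxb2 (17.2 in chase and 23.2 CPM in pulse), Hoxc8 (17.4 and 17.4 CPM), Hoxc11 (14.6 and 12.4 CPM), Hoxa3 (12.6 and 10.8 CPM) and Hoxb4 (11.5 and 10.4 CPM). Hoxa6, between Hoxa5 and Hoxa7 in the cluster, stood at 7.92 CPM in chase and 4.14 CPM in pulse.

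The most posterior genes were scarce. Hoxa11, which patterns the lower leg and forearm, stood at 3.43 and 4.86 CPM in chase and pulse stroma. Hoxa13, a gene of the digits and the hind gut, stood at 1.99 in chase and 1.85 CPM in pulse. In the Hoxd cluster, Hoxd8 reached 5.50 CPM in chase and 4.90 CPM in pulse and Hoxd9 0.815 and 0.694 CPM, while Hoxd10, Hoxd11 and Hoxd13 had 6 UMIs or fewer in either library and Hoxd12 none. Hoxb5 to Hoxb9 stood at 0.147 to 0.525 CPM each. Hoxc12, which lies beside Hoxc13 in the cluster, had 38 UMIs in chase and 14 in pulse stroma. In all, 29 of the 39 genes had at least 20 UMIs in both libraries in 1 of the 3 classes, and the 10 below that mark were Hoxb1, Hoxb13, Hoxc12, Hoxd1, Hoxd3, Hoxd4 and Hoxd10 to Hoxd13.

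Adult marrow endothelium had another code, set apart from that of stroma most by the middle Hoxb genes, Hoxb5 to Hoxb9. Hoxb8, a gene also known from myeloid progenitors, stood at 44.1 and 51.9 CPM in chase and pulse endothelial cells, against 0.337 and 0.147 CPM in stromal cells. The endothelial over stromal ratio was 131 (71.7 to 262) in chase and 353 (167 to 893) in pulse. Hoxb7 (24.4 in chase and 29.3 CPM in pulse), Hoxb6 (18.8 and 18.5 CPM), Hoxb5 (12.2 and 9.26 CPM) and Hoxb9 (11.8 and 15.2 CPM) followed the same pattern. Their endothelial over stromal ratios lay between 33.5 and 72.5 in chase and between 17.6 and 88.2 in pulse. The anterior members Hoxb4 (ratio 4.80, 3.90 to 5.87, in chase and 5.39, 4.47 to 6.48, in pulse), Hoxb3 (3.74 and 4.67) and Hoxa5 (2.1 and 2.85) were also higher in endothelium, but by less. Hoxa5, a gene of the neck level, was the most abundant of all in endothelium, at 68.5 in chase and 66.3 CPM in pulse, and Hoxb4 came next at 55.4 and 56.3 CPM, with overlapping intervals. Hoxa7 stood at 44.1 in chase and 38.5 CPM in pulse in endothelial cells, so Hoxa genes were also a large part of this code. Of the Hoxd cluster, Hoxd8 stood at 14.4 in chase and 23.3 CPM in pulse in endothelial against 5.50 and 4.90 CPM in stromal cells.

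The Hoxc cluster went the other way. Hoxc9 had 3 UMIs in chase and 1 in pulse endothelial cells, and its endothelial over stromal ratio was 0.0324 (0.00668 to 0.0950) and 0.00934 (0.000236 to 0.0521). For comparison, 3.83% in chase and 6.04% in pulse of the stromal Adipoq level was found in endothelial cells, the highest share of 3 stromal markers. For Hoxc6, Hoxc9 and Hoxc10 the endothelial interval did not lie above what free stromal RNA would give at that share, and their levels there are read as background. Hoxa9 (11.4 in chase and 10.8 CPM in pulse) and Hoxa10 (8.29 and 7.78 CPM) were lower than in stroma, with ratios of 0.316 and 0.254 for Hoxa9 and 0.189 (0.113 to 0.296) and 0.129 (0.0794 to 0.197) for Hoxa10, yet above that free-RNA level (1.68 and 3.66 CPM for Hoxa10). Hoxa11 had 0 UMIs in endothelial cells of either library. A gene was called when 2 classes differed by at least 2-fold with at least 20 UMIs over both, and a level of 0 was set to 3 counts. By that rule 10 of 31 Hox genes were higher and 11 lower in chase endothelium, where 18.5% of all genes were higher and 16.8% lower. In pulse these were 10 higher and 11 lower of 29, against 19.0% higher and 17.4% lower of all genes. The median log2 ratio over the Hox genes, 0.10 in chase and -0.31 in pulse, was near that of all genes (0.17 and 0.16).

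**Figure D2:**
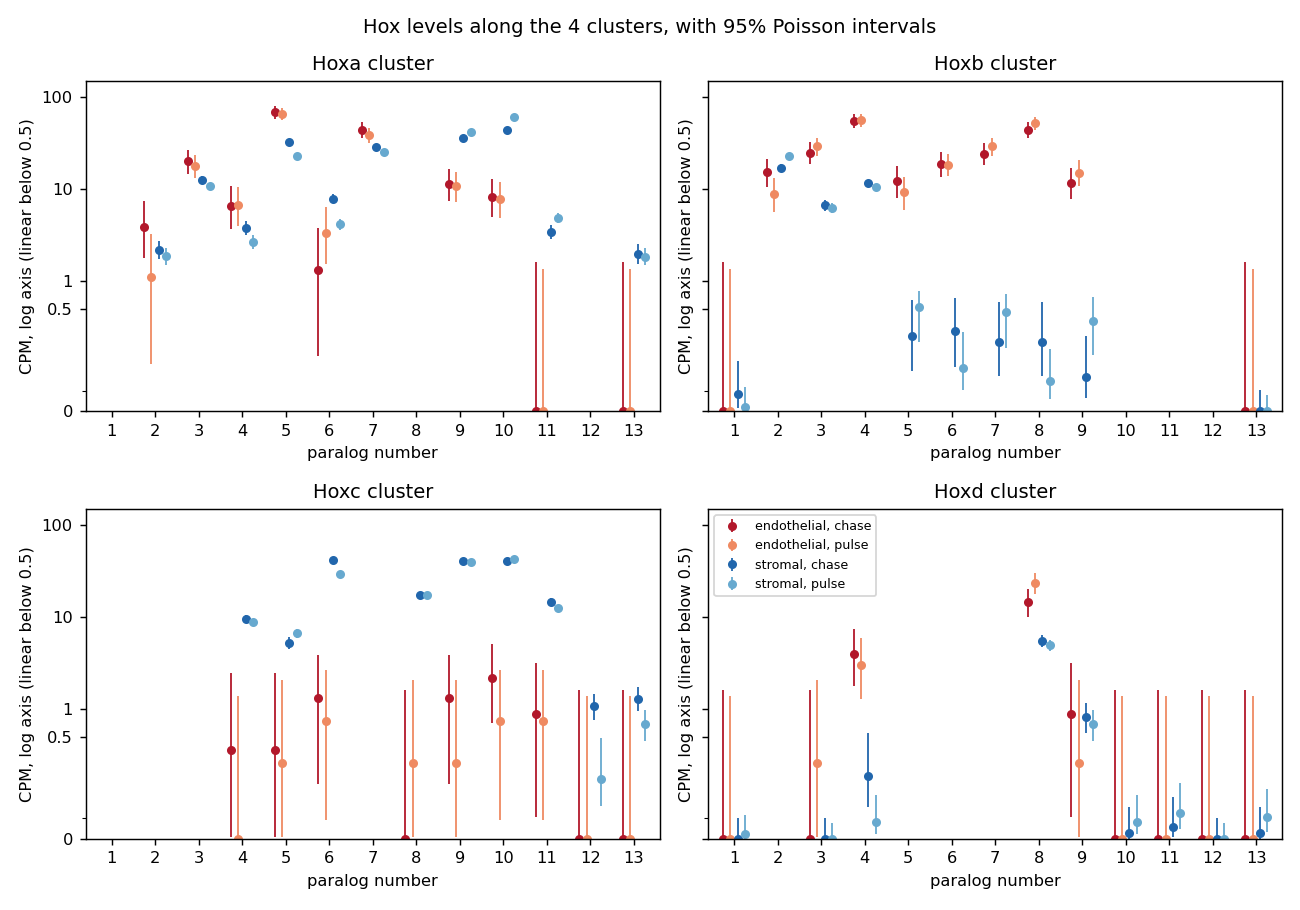
CPM of Hox genes by paralog number (horizontal axis), 1 panel for each cluster, in endothelial and stromal cells of the chase and pulse libraries (vertical axis, log scale, linear below 0.5). Endothelial points lie far above stromal ones for Hoxb5 to Hoxb9, and stromal points far above endothelial ones along the Hoxc cluster and from Hoxa9 on.

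Blood differed from stroma along nearly the whole family. Of the described genes, 24 of 25 in chase and 26 of 27 in pulse were at least 2-fold higher in stromal than in blood cells and none was lower, against 28.5% and 27.8% of all genes higher and 22.5% and 21.2% lower. Some of these, such as Hoxa13 and Hoxd9, had 0 UMIs in blood of both libraries, so their call followed from the rule. The Hox median log2 ratio was 5.09 in chase and 3.95 in pulse, against 0.09 and 0.07 over all genes. Hoxc10 stood 77.7-fold (48.4 to 134) higher in chase and 65.4-fold (40.2 to 115) higher in pulse stroma than in blood. With whole Leiden clusters in place of gates, these ratios were 41.8 in chase and 10.7 in pulse, and the Hox level of blood was 33.0 and 48.3 CPM. The 1 gene within 2-fold in both libraries was Hoxb4, a gene known for expanding blood stem cells when overexpressed, at 11.5 in chase and 10.4 CPM in pulse in stroma against 9.26 and 6.72 CPM in blood. Its stromal over blood ratio was 1.25 (1.07 to 1.45) in chase and 1.55 (1.30 to 1.86) in pulse, and 2.14 in pulse when each cell had equal weight. Endothelial cells were higher than blood for each of 16 genes in chase and 15 in pulse, where 25.8% and 23.3% of all genes were. None was lower, against 19.4% in chase and 19.8% in pulse of all genes. The 16 genes in chase include Hoxc10, with 5 endothelial UMIs in 2 cells, a level read above as background.

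Among blood classes with over 100 cells in each library, Hoxa7 and Hoxa9 were highest in the progenitor-like cells, a myeloid progenitor class with Mpo, Elane and Prtn3. They numbered 361 in chase and 121 in pulse, with median depths of 21589 and 21019 UMIs. Hoxa9, a regulator of myeloid progenitor growth and a partner of Meis1 in leukemia, stood at 11 CPM (8.86 to 13.5) in chase and 22.4 CPM (16.9 to 29.0) in pulse progenitors. These levels came from 92 UMIs in 48 chase cells and 57 UMIs in 27 pulse cells, with up to 7 and 14 in 1 cell. Such spread between progenitor cells is not covered by the intervals. Free RNA from stromal and endothelial cells would give 0.434 in chase and 0.654 CPM in pulse there. The progenitor over other blood ratio of Hoxa9 was 6.96 (4.72 to 10.4) in chase and 14.2 (9.18 to 22.3) in pulse. Hoxa7, its neighbour, stood at 10.8 CPM (8.65 to 13.2) in chase and 11.8 CPM (7.94 to 16.8) in pulse, with ratios of 4.79 (3.38 to 6.84) and 7.95 (4.68 to 13.4). Under a stricter gate the ratios were 2.63 in chase and 5.00 in pulse for Hoxa9 and 2.68 and 4.44 for Hoxa7, and with whole clusters in pulse 3.82 for Hoxa9 and 3.81 for Hoxa7. Both genes stayed over 2-fold in each of these settings. Hoxa5 stood at 1.79 CPM (1.00 to 2.96) in chase and 4.31 CPM (2.15 to 7.72) in pulse progenitors, and was over 2-fold above other blood in pulse (2.83) but not in chase (1.31). Of 6 described genes, 2 were called higher and 0 lower in chase, against 9.51% higher and 24.6% lower of all genes. In pulse 3 were higher and 2 (Hoxa10 and Hoxb3, each with 1 UMI in progenitors) lower, against 10.0% and 24.3%.

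The few cells with the dendritic panel (40 in chase and 33 in pulse) had higher Hoxa7 values, with wide intervals: 24.9 CPM (11.4 to 47.2) in chase and 43.0 CPM (21.5 to 76.9) in pulse, from 9 and 11 UMIs. Their Hoxa9 values, 16.6 CPM (6.09 to 36.1) in chase and 23.5 CPM (8.61 to 51.0) in pulse from 6 UMIs each, overlapped those of progenitors.

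Hoxb4 was spread over blood rather than held by progenitors. It stood at 12.6 and 10.6 CPM in chase and pulse progenitors, 9.61 and 5.28 CPM in neutrophil-like cells and 9.51 and 7.88 CPM in monocyte- or macrophage-like cells. In each of these its interval lay above the free-RNA level in both libraries, as it did in B cell-like cells (5 UMIs in chase and 8 in pulse). For macrophages that level was raised by Stab2, an endothelial scavenger receptor, whose macrophage level was 5.38% in chase and 6.73% in pulse of the endothelial one. T or NK-like cells had no Hox gene above the free-RNA level in both libraries. Erythroid cells had Hoxa9 at 7.87 CPM (3.60 to 14.9) in chase and 7.69 CPM (2.82 to 16.7) in pulse, from 9 and 6 UMIs. Hoxa10, strong in stroma, was not above the free-RNA level in progenitors (0.598 in chase and 0.392 CPM in pulse, against 0.485 and 0.878 CPM).

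**Figure D3:**
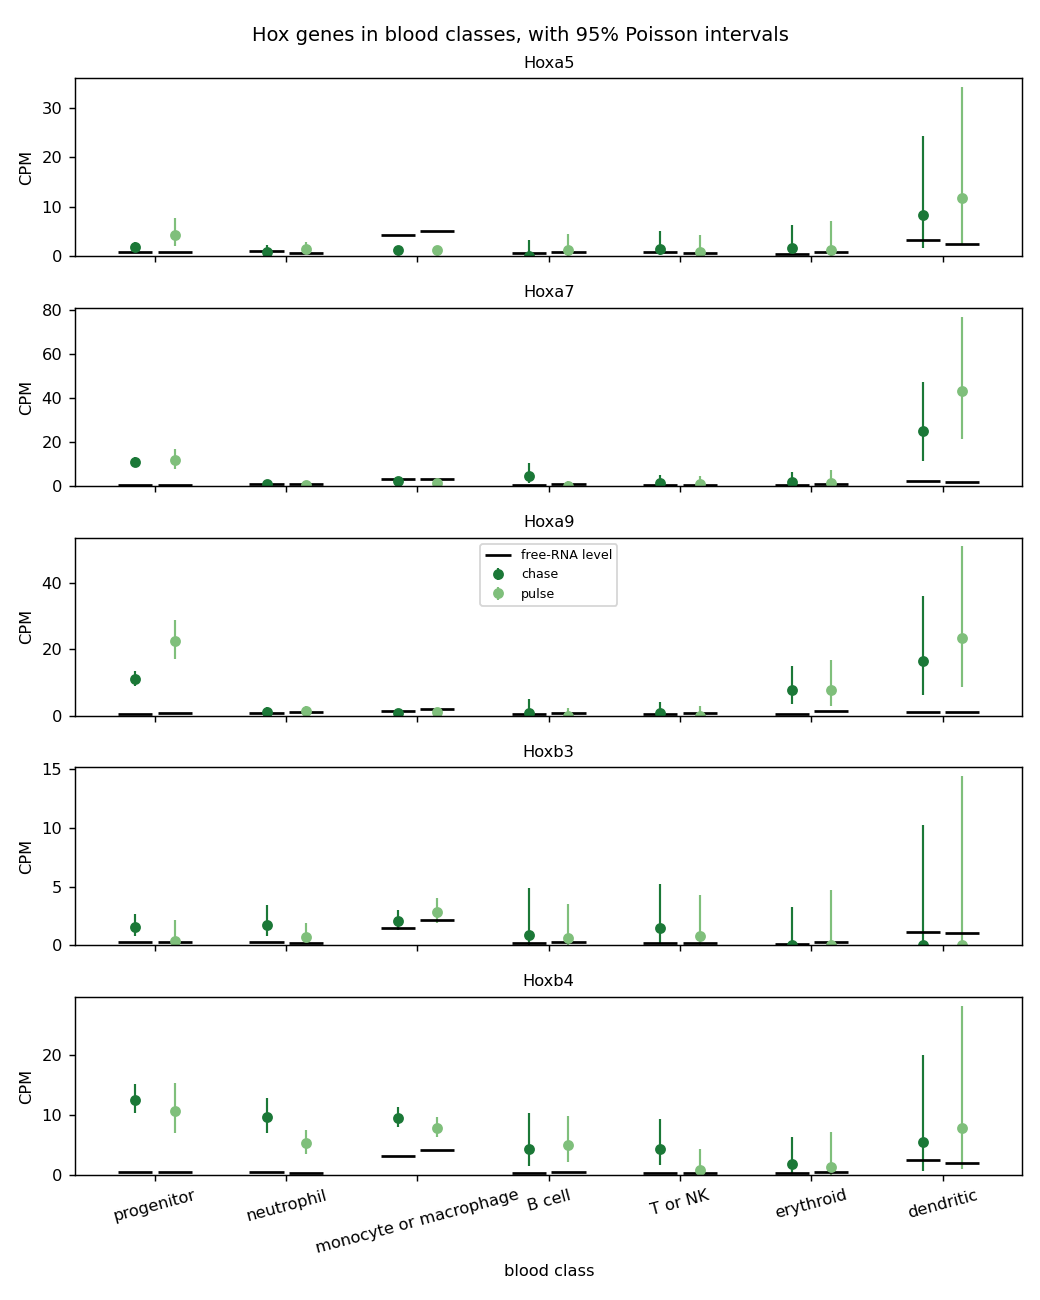
CPM of 5 Hox genes (panels) in 7 blood classes of the chase and pulse libraries, with 95% Poisson intervals, and the level that free stromal and endothelial RNA would give (black bars). Hoxa7 and Hoxa9 stand at 10.8 to 22.4 CPM in progenitors and at 16.6 to 43.0 CPM, with wide intervals, in the few dendritic cells, while Hoxb4 lies at 5.28 to 12.6 CPM in progenitor, neutrophil and monocyte or macrophage classes.

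Within the stroma, osteoblast-like cells (with Bglap and Col1a1), osteogenic CAR-like cells (with Alpl and Wif1) and adipogenic CAR-like cells (CXCL12-abundant reticular cells with Adipoq and Lepr) were told apart by their markers. They numbered 306, 666 and 3553 cells in chase and 439, 926 and 3510 in pulse. Below they are called osteoblasts, osteogenic and adipogenic cells. Both CAR classes had like Hox totals, 433 and 430 CPM in osteogenic and 429 and 435 CPM in adipogenic cells of chase and pulse. Osteoblasts had 202 CPM (190 to 213) in chase and 191 CPM (182 to 200) in pulse. In osteoblasts a median of 27.9% in chase and 30.4% in pulse of a cell's UMIs fell in the stromal marker panel, and the median log2 ratio of all genes against adipogenic cells was -0.90 and -0.98. The Hox median was -1.56 in chase and -1.70 in pulse.

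Against that shifted background, osteoblasts differed from adipogenic cells gene by gene. Hoxb2, a gene of the hindbrain level, was the 1 gene higher in both libraries, at 34.9 in chase and 37.9 CPM in pulse in osteoblasts against 12.8 and 18.5 CPM in adipogenic cells. Its ratio was 2.73 (2.28 to 3.26) in chase and 2.05 (1.79 to 2.34) in pulse, the second of which lay under 2 without a filter on cells and with equal weight for each cell. The Hoxb2 UMIs lay in 76 of 306 chase and 127 of 439 pulse osteoblasts, with up to 12 and 11 in 1 cell. Those of Hoxc9 lay in 142 chase and 223 pulse osteoblasts. The intervals do not cover this spread between cells. Hoxc9 stood at 37.5 in chase and 40.0 CPM in pulse in osteoblasts, close to its level in adipogenic cells (39.5 and 37.7 CPM), with ratios of 0.95 (0.818 to 1.10) and 1.06 (0.941 to 1.19). The anterior Hoxa genes were far lower: Hoxa3 had ratios of 0.0773 in chase and 0.0942 in pulse, Hoxa5 of 0.177 and 0.164 and Hoxa6 of 0.0168 (from 1 UMI) and 0.0597 (from 3 UMIs). Hoxc11 stood at 0.219 in chase and 0.104 in pulse, Hoxc6 at 0.225 and 0.319 and Hoxb4 at 0.240 and 0.254. Hoxa9 (0.365 in chase and 0.185 in pulse), Hoxa10 (0.495 and 0.321) and Hoxc10 (0.528 and 0.429) lay between these and Hoxc9. In chase 18 of 25 described genes were lower and 1 higher, against 45.2% lower and 6.11% higher of all genes. In pulse 19 of 24 were lower and 1 higher, against 49.3% and 6.62%.

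**Figure D4:**
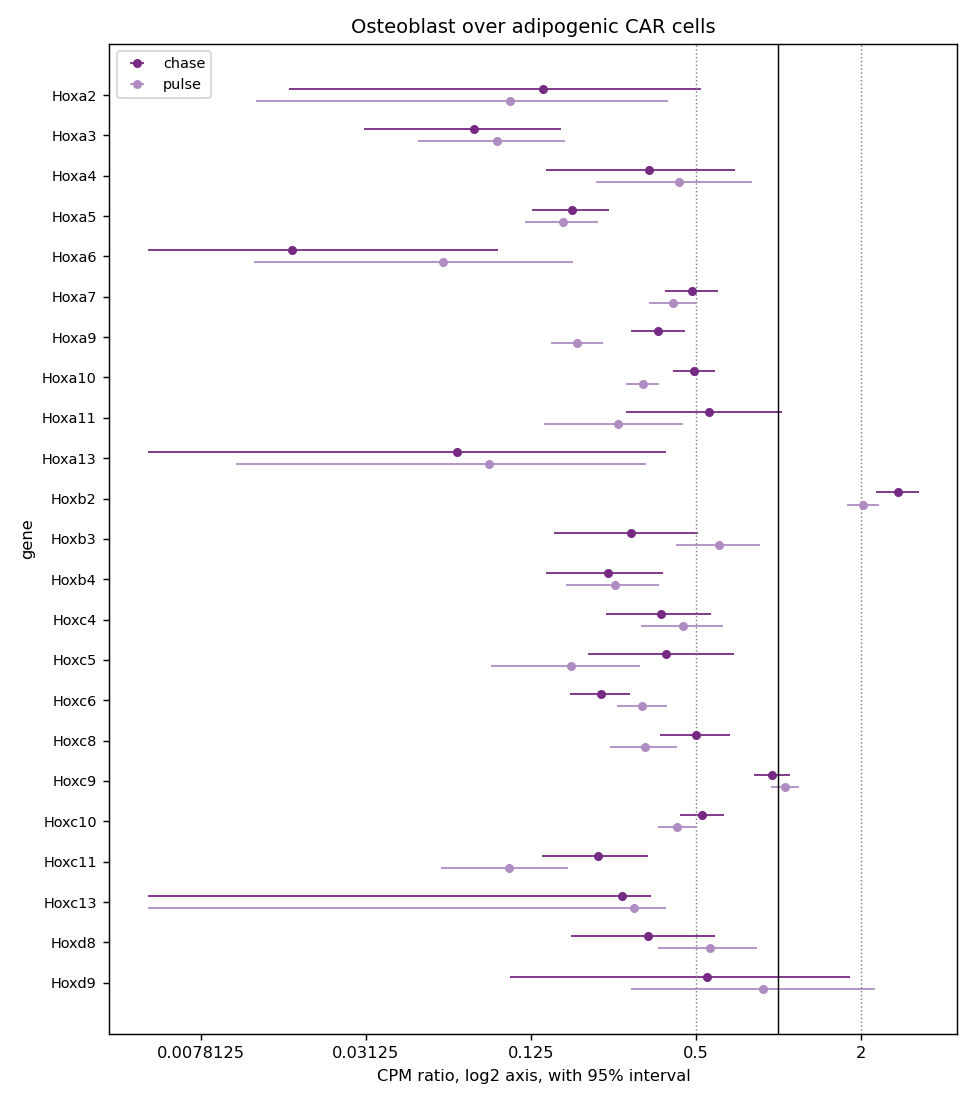
Osteoblast over adipogenic CAR ratio of CPM (log2 axis) with 95% intervals for Hox genes described in both libraries, chase above pulse for each gene, with dotted lines at 2-fold. Hoxb2 lies right of 2 in both libraries, Hoxc9 lies at 1, and the Hoxc13 value is a bound because osteoblasts had 0 UMIs.

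Osteogenic and adipogenic CAR cells had nearly the same Hox code. Most genes of any kind were likewise within 2-fold between these classes, so the likeness is not particular to Hox genes. Of 25 described genes in chase, 0 were higher and 2 lower in osteogenic cells (Hoxc12 and Hoxc13), against 6.89% higher and 7.72% lower of all genes. Of 26 in pulse, 1 was higher (Hoxb5, ratio 3.35) and 1 lower (Hoxc13, 0.216), against 7.34% and 5.64%. Hoxc12 and Hoxc13, the second of which acts in hair and nails of mice, stood at 0.181 CPM each in chase osteogenic cells, against 1.54 and 1.87 CPM in chase adipogenic cells. Hoxc10 stood at 53.7 in chase and 56.7 CPM in pulse in osteogenic against 42.3 and 45.2 CPM in adipogenic cells, and Hoxc8 at 25.7 and 25.3 CPM against 17.6 and 18.8 CPM. Near the cut that separates these classes lay 138 chase and 251 pulse cells.

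Chase and pulse libraries had closely similar Hox codes, a likeness that most genes shared and that is not particular to Hox genes. Hoxa10 was lower in chase in part of the adipogenic cells. Different clusters held most adipogenic cells of each library, cluster 0 in chase (2817 of 3553) and cluster 1 in pulse (2445 of 3510). None of clusters 0, 1, 6 and 8 had a marker of its own class among its 10 leading genes, and 6 and 8 had the progenitor marker Kit there. Chase and pulse were therefore also compared cluster by cluster, with 129 pulse cells in cluster 0 and 65 chase cells in cluster 1 as the smallest groups. Hoxa10 stood at 47.6 CPM in chase and 74.7 CPM in pulse adipogenic cells, a ratio of 0.637 (0.592 to 0.684). The ratio was 0.605 (0.466 to 0.799) in cluster 0, 0.630 (0.403 to 0.941) in cluster 1, 0.512 (0.393 to 0.661) in cluster 6 and 0.805 (0.578 to 1.11) in cluster 8. In cluster 3, mostly of osteogenic CAR cells, it was 0.962 (0.813 to 1.14), and in cluster 7, of osteoblasts, 0.974 (0.785 to 1.21). In cluster 20, a smaller cluster gated mostly as osteogenic CAR (120 stromal cells in chase and 105 in pulse), it was 1.25 (0.808 to 1.95). The 10 leading genes of cluster 20 included Spp1, Mmp13 and the osteocyte marker Dmp1, but not Alpl or Wif1. Hoxa10 was thus lower in chase in clusters 0, 1 and 6, by less than 2-fold, and its interval included 1 in clusters 3, 7, 8 and 20. Its level over all osteogenic cells was 49.9 in chase and 53.0 CPM in pulse (ratio 0.943).

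For several other genes the interval excluded 1 in some clusters and included 1 in others, while those of Hoxa7, Hoxc9 and Hoxc10 included 1 in all 7. An interval that includes 1 does not show that the libraries were alike, least of all where UMIs were few. Over 7 stromal clusters, 169 ratios came from Hox genes with UMIs in both libraries, and 17 intervals lay above 1 and 7 below. No share over all genes stands beside these counts, so they are not read as a trait of Hox genes. Hoxc6 stood at 50.5 CPM in chase and 33.4 CPM in pulse adipogenic cells (ratio 1.51, 1.39 to 1.65), but its ratio was 1.30 in cluster 0, 0.963 in cluster 1, 1.31 in cluster 6 and 0.800 in cluster 8, each interval including 1, and 1.23 (1.02 to 1.48) in cluster 3. Hoxa5 was higher in chase in clusters 3 (1.29, 1.02 to 1.63), 6 (1.41, with a lower bound of 1.01) and 20 (2.40, 1.23 to 4.89), and its interval included 1 in clusters 0, 1, 7 and 8. Hoxa9 was higher in chase in clusters 7 (1.51, 1.12 to 2.06) and 20 (1.66, 1.08 to 2.60) and lower in cluster 8 (0.566, 0.360 to 0.861). Its interval included 1 in clusters 0, 1, 3 and 6. Over all stroma Hoxa9 was lower in chase (0.847, 0.789 to 0.909), as was Hoxb2 (0.738, 0.668 to 0.816), while Hoxa5 was higher (1.41, 1.29 to 1.53). Hoxb2 was lower in cluster 3 (0.684, 0.488 to 0.945), and its interval included 1 in the other clusters. Hoxc13 was higher in chase in cluster 6, with 26 UMIs in chase and 14 in pulse (ratio 2.58, 1.30 to 5.34), and Hoxc11 in clusters 6 (1.6, 1.06 to 2.43) and 7 (2.30, 1.14 to 4.76). Hoxa6 had a ratio of 1.88 (1.53 to 2.31), with 2.76 (1.09 to 5.89) in cluster 1 and 1.00 (0.451 to 2.16) in cluster 6. Hoxc12 was the 1 gene called higher in chase adipogenic cells, with 37 UMIs in 35 cells against 13 UMIs in 13 pulse cells (3.46, 1.80 to 7.10). In cluster 6 alone it had 18 in chase and 9 UMIs in pulse (ratio 2.77, 1.18 to 7.01), and in cluster 0 alone 19 and 1 (ratio 0.703, 0.112 to 29.2). Of 27 described genes in adipogenic cells 1 was higher and 0 lower, against 4.32% higher and 2.55% lower of all genes. Of 29 in all stroma 1 was higher (Hoxc12) and 1 lower (Hoxb9, 6 UMIs in chase and 21 in pulse), against 3.97% and 2.55%. Osteogenic cells had 0 of 22 either way (2.19% higher and 3.10% lower of all genes), endothelial cells 0 of 15 (2.94% and 1.36%) and blood 0 of 11 (2.76% and 3.48%). In osteoblasts Hoxc11 was higher (3.84 CPM in chase against 1.68 CPM in pulse, ratio 2.28, 1.15 to 4.62) and Hoxb9 lower among 18 genes (3.24% and 2.54%). Time after tamoxifen, age and library cannot be told apart in these ratios.

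**Figure D5:**
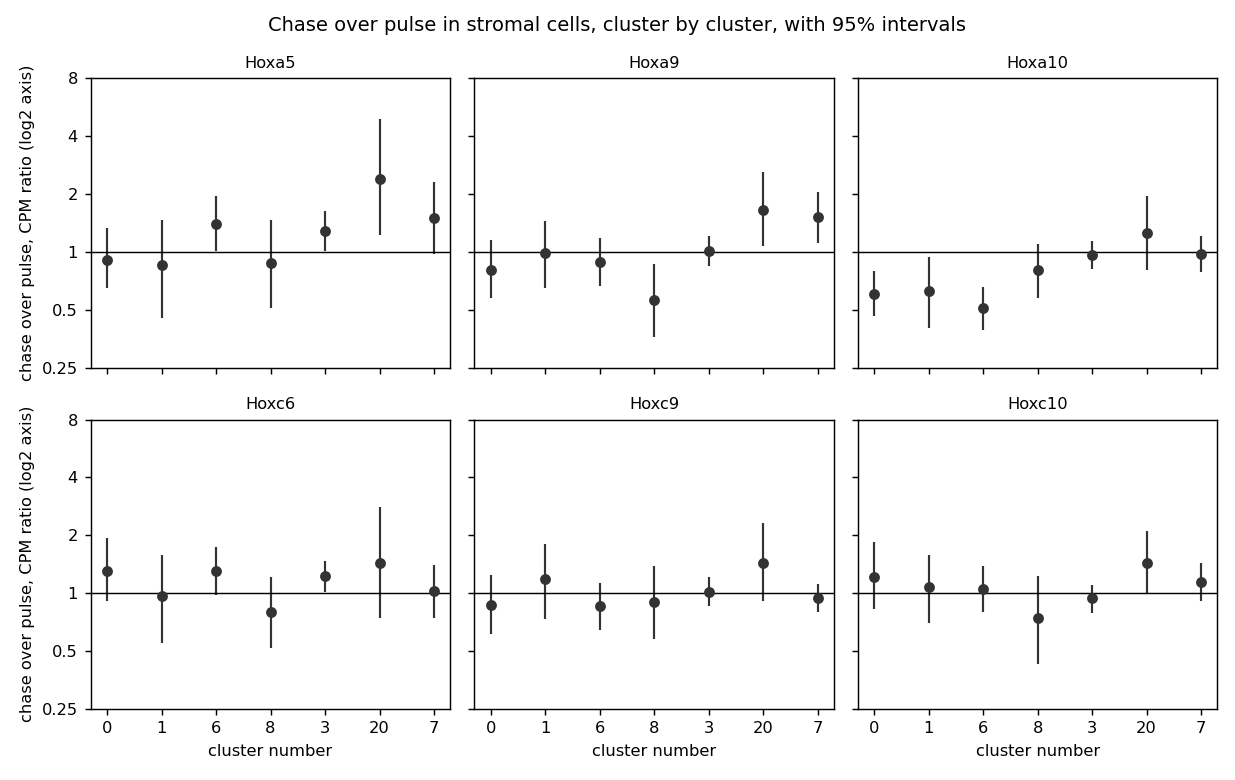
Chase over pulse ratio of CPM (log2 axis) with 95% intervals for 6 Hox genes (panels) in stromal cells of 7 clusters. By gate, clusters 0, 1, 6 and 8 are mostly adipogenic CAR, 3 and 20 osteogenic CAR and 7 osteoblast cells. Cluster 20 also has the osteocyte marker Dmp1. Hoxa10 lies at 0.512 to 0.630 in clusters 0, 1 and 6 and at 0.962 in cluster 3, while Hoxc9 and Hoxc10 intervals include 1 in every cluster drawn.

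Single cells had few Hox genes each at this depth. After each cell was thinned to 2000 UMIs, 56.6% of chase and 51.9% of pulse endothelial cells had a UMI of any Hox gene, as did 55.4% and 53.8% of stromal and 4.71% and 4.24% of blood cells. Shallower cells left out numbered 23 in chase and 14 in pulse endothelial, 289 and 198 stromal and 80 and 350 blood cells. Without thinning the shares were 86.1% in chase and 85.9% in pulse of endothelial, 85.3% and 90.1% of stromal and 19.5% and 12.8% of blood cells. A UMI of Hoxb5 to Hoxb9 was found in 21.5% in chase and 19.9% in pulse of thinned endothelial cells but in 0.307% and 0.321% of stromal cells (46.5% and 54.9% against 1.08% and 1.37% without thinning). A thinned stromal cell had 0.808 Hox genes in chase and 0.789 in pulse on average, and with all UMIs 2.47 and 2.89, up to 12 in chase and 13 in pulse.

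In adipogenic cells, pairs of Hox genes, summed, were seen in the same cell slightly more often than the product of their single shares. After thinning to 2000 UMIs, cells with both genes of a pair from 1 cluster numbered 1.22 times the product in chase and 1.18 times in pulse, summed over 172 pairs. For pairs from different clusters the ratio was 1.09 in chase and 1.05 in pulse. In endothelial cells the ratio for pairs from 1 cluster was 1.18 in chase and 0.882 in pulse. These are sums over the cells of 1 library each, and cells of femur and tibia were not kept apart.

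Genes that work with Hox proteins were set beside this code. TALE homeodomain proteins, which bind DNA together with Hox proteins, had 5 of 9 genes higher and 1 lower in stroma than in blood in both libraries, against 28.5% of all genes higher and 22.5% lower in chase and 27.8% higher and 21.2% lower in pulse (median log2 ratio 2.03 in chase and 1.33 in pulse). Meis2 stood at 50.2 in chase and 36.4 CPM in pulse in stroma against 0.309 and 0.403 CPM in blood, and at 2.18 and 2.59 CPM in endothelium. Meis1 and Meis3 were also higher in stroma than in blood, and Pbx4 was the 1 lower gene. Of 14 genes of limb identity and patterning, 11 of 11 described in chase and 13 of 13 in pulse were higher in stroma than in blood, against 28.5% in chase and 27.8% in pulse of all genes. Some, such as Tbx4 and Prrx2, had 0 UMIs in progenitor, neutrophil, macrophage, B, T or NK and erythroid cells. A gene with UMIs only in stroma can only be called higher there, so these counts are not read as a result on their own. Prrx1, a marker of limb bud mesenchyme, stood at 292 in chase and 276 CPM in pulse in stroma against 2.90 and 5.55 CPM in blood. Shox2, which patterns the upper limb segment, stood at 190 in chase and 193 CPM in pulse and Twist1 at 106 and 89.1 CPM. Pitx1, the hindlimb selector, stood at 18.4 in chase and 24.8 CPM in pulse, Tbx5, known for the forelimb, at 2.89 and 1.35 CPM and Tbx4, known for the hindlimb, at 0.702 and 0.694 CPM.

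The noncoding genes of the Hox clusters followed the coding ones. All 5 described of the 11 found in the features were higher in stroma than in blood in both libraries, against 28.5% in chase and 27.8% in pulse of all genes. Among them was Hotairm1, an antisense RNA of the Hoxa cluster, at 52.7 in chase and 50 CPM in pulse in stroma and 34.5 and 42.6 CPM in endothelium, against 3.86 and 5.19 CPM in blood. Chromatin regulators of Hox genes, most of them of the Polycomb and Trithorax groups, were mostly within 2-fold between stroma and blood. Of 19, Bmi1 and Phc1 were higher in both libraries, and 2 in chase (Ezh2 and Eed) and 4 in pulse (with Suz12 and Cbx7) were lower. Of all genes 28.5% were higher and 22.5% lower in chase, and 27.8% higher and 21.2% lower in pulse, so the lower share of 4 in 19 in pulse is near that of all genes. The caudal genes Cdx1, Cdx2 and Cdx4, which set Hox boundaries in the embryo, had 0 UMIs in stromal cells. By GENCODE vM21 on mm10, 9 Hox genes share exonic bases with another gene on the same strand, chiefly Hoxd3 (62.3% of its exonic bases) and Hoxd4 (52.3%). Of the last 500 exonic bases, 0% of Hoxd3 and 4.4% of Hoxd4 were shared. Whether sharing lowered their counts was not tested. For no Hox gene was as much as 50% of the last 500 exonic bases shared.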

How the data were processed

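Single-cell RNA-seq of sorted bone cells was deposited as 2 matrices of raw UMI counts, made with Cell Ranger 6.0.2 per the file headers (2.1.1 per the submitters' processing notes) on mm10 per the same notes; no source used here gives the annotation release. In these deposited counts 1 UMI stands for 1 captured 3′ end, so no length scaling was used. Cells were kept with 500 or more genes, 1000 or more UMIs and mitochondrial UMIs under 10%. Scrublet (scanpy 1.11.5) marked 110 chase and 178 pulse doublets, which were removed. Clusters were made with Leiden (leidenalg 0.10.2) at resolution 1 on 2000 variable genes and 30 components.

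Classes were gated on the share of a cell's UMIs in marker panels: stromal at least 0.5%, endothelial at least 0.15% and blood at least 0.1% (or erythroid genes at least 0.1%, or S100a8 and S100a9 at least 3%), with 2 passes called mixed. Osteoblasts needed 5% of the osteoblast panel, and osteogenic cells a higher mean log panel than the adipogenic one. Blood sub-classes went to the highest panel with 3 markers detected. Close to a cut (within 20%) lay 114 chase and 172 pulse cells for the stromal gate, 131 and 78 for blood and 19 and 18 for endothelial. The members, marker lists and comparisons were chosen with earlier results of these data known, and the gate thresholds after seeing the data.

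UMIs were summed per class and library and divided by the class total to give CPM. Intervals are exact Poisson for levels, Clopper-Pearson for shares and conditional exact for ratios, all at 95%, and cover counting error only. The free-RNA level was the highest blood over stromal ratio of Adipoq, Lepr and Cxcl12 times the stromal CPM; a like term from Cdh5, Stab2, Flt4 and Tie1 for endothelial RNA was added after seeing the data. Genes with at least 20 UMIs in 1 class in both libraries were described, the rest counted; Hoxc12, outside this rule, was named after its values were seen. The 2-fold rule was tried on simulated Poisson counts, without spread between cells or mice, with 200 genes changed 4-fold. For stromal over blood in pulse (15270 genes) it recovered 196, or 99.5% of the changed genes with at least 20 UMIs. For endothelial over stromal in pulse (14285 genes) it recovered 186, or 93.9%. Of unchanged genes 0.942% and 5.4% lay past the fold. Alternatives were stricter gates, clusters in place of gates, other cell and doublet filters, other denominators, folds, UMI minima and thinning. Chosen after seeing the data were leaving out cells with shared barcodes and single-cluster ratios. Promoter sequences and their motif shares came from RefSeq on GRCm38.p6. Some genes are not reported here.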

Additional observations from a re-analysis of the deposited data

Results flagged for a closer look

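Hox UMIs were also found in barcodes outside every comparison. Cells that passed more than 1 gate had 244 CPM of Hox UMIs in chase and 254 CPM in pulse, and cells that passed no gate 92.3 CPM in chase and 92.7 CPM in pulse. Barcodes removed by the cell filter had 224 CPM in chase and 287 CPM in pulse. Of the cells that passed more than 1 gate, 145 in chase and 134 in pulse had both stromal and endothelial panels.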

How the results depend on the processing

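Most values kept their direction and size: of 244 alternative values of main results 211 stayed the same and 33 moved, and none changed sign. Of alternative values of other results 150 stayed the same, 23 moved and 1 reversed. The stricter gate gave 21.9 CPM in chase and 18 CPM in pulse of Hox genes in blood, mean paralogs there of 5.34 and 5.65, and 2 genes higher in chase stroma. Whole clusters gave endothelial mean paralogs of 6.04 in chase and 6.14 in pulse, blood levels of 33.0 and 48.3 CPM with mean paralogs of 6.08 and 6.96, 2 genes higher in pulse osteoblasts and 2 in chase stroma. The pulse count of genes higher in osteoblasts was 0 with no filter on cells, 2 with doublets kept and 0 with equal weight per cell. Without mitochondrial and ribosomal protein UMIs, Hox levels were 469 CPM in chase and 485 CPM in pulse in endothelium, 444 and 445 CPM in stroma and 32.9 and 29.4 CPM in blood. Equal weight per cell gave 410 CPM in chase and 426 CPM in pulse in stroma, 23.1 and 21.5 CPM in blood, 377 CPM in pulse endothelium, a mean paralog of 5.67 in pulse blood and 0 genes lower in chase stroma. At 1.5-fold 4 genes were higher in chase stroma, and with at least 50 UMIs 0 were lower. Without thinning, the between-cluster co-detection ratio was 1.20 in chase and 1.15 in pulse. In cluster 0 alone the Hoxc12 ratio of chase over pulse was 0.703, with 1 pulse UMI. Leaving out cells with shared barcodes moved none of the main results. The causes were not tested.

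No paired analysis was possible because each group has 1 library and no result comes from a test. Depth limits the values of small classes, such as erythroid cells (72 in chase and 76 in pulse) and progenitors (361 in chase and 121 in pulse).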

Other observations

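The Hoxb9 UMIs of pulse stroma came mostly from osteoblasts: 17 of 21 UMIs lay in 11 of the 439 pulse osteoblasts. In chase, 3 of the 6 stromal UMIs lay in 1 of 306 osteoblasts.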
